A study of Mus musculus with 6 samples.

Results

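The genes described here are 29 crystallins and other genes of the lens fibre cell, read in mouse retina. A gene was taken when at least 1 probe set of the array is annotated with its symbol and no other. All 29 were found, on 32 probe sets of the 41345 on each array, and they are 29 of the 22180 genes that have such a probe set. Cryaa, Cryab and Mip have 2 probe sets each, and the brighter one represents the gene unless the other is named.

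RNA of whole retina, taken from males on postnatal day 17, was hybridized to Affymetrix gene arrays for mouse. The knockout group holds 3 Atrx flox/y animals that carry 1 copy of a Cre transgene, and the wildtype group holds 3 Atrx flox/y littermates without Cre, so the floxed allele of Atrx is shared by both groups. The retinas of the left and right eye of an animal were combined, and the labels say that the lens was removed before the retina was taken out through the cornea. Cre is present in every knockout and in no wildtype animal, so the Cre transgene and the loss of Atrx cannot be told apart in these groups. The promoter that drives Cre is active in progenitors of the neural retina, whereas the lens arises from surface ectoderm. In bulk tissue, fewer cells of a type and less RNA per cell cannot be told apart either.

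Crystallins are the soluble proteins that fill lens fibre cells and give the lens its refractive power. The alpha crystallins are small heat shock proteins that keep other proteins from aggregating, and the beta and gamma crystallins form a family of compact structural proteins. As fibre cells mature they also build beaded filaments, water channels and gap junctions and degrade their nuclei. Several crystallins, Cryab above all, are also made in retinal glia and other tissues, so finding one of them in retina is not by itself a mark of lens.

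The promoters of Cryga to Crygf are shown because these genes are related in sequence, 5 of them being neighbours on chromosome 1, and yet 1 of them, Cryge, stayed dim on every array. Promoters of Cryba1, Crybb1 and Cryaa stand beside them for comparison. The letters come from RefSeq (build GRCm38.p6), run 5′ to 3′ on the strand of the gene, and cover 80 bases before to 50 bases after the annotated start. Capitals mark the variants TATATA and also TATAAA of the TATA box, the letters CTTTTGTG that most of these gamma promoters share, and the motif TGCTGAC. Every motif was searched on both strands, TATATA reads the same on both, and a window may hold several.
Cryga (chr1:65103314-65103443, minus): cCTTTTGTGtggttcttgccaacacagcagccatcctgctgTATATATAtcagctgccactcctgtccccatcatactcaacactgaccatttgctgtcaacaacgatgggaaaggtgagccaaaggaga
Crygb (chr1:65082241-65082370, minus): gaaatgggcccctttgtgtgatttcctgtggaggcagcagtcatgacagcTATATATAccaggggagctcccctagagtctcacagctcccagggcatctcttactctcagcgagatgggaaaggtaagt
Crygc (chr1:65073483-65073612, minus): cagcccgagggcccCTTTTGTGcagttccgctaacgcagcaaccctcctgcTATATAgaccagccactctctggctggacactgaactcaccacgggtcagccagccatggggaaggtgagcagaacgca
Crygd (chr1:65063391-65063520, minus): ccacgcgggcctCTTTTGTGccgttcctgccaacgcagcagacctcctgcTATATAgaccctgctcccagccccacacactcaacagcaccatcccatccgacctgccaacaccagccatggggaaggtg
Cryge (chr1:65051114-65051243, minus): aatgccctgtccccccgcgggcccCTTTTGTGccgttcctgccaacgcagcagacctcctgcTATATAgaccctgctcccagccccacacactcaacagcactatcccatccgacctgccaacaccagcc
Crygf (chr1:65926442-65926571, plus): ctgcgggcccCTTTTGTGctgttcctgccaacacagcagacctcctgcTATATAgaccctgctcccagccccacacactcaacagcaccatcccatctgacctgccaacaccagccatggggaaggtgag
Cryba1 (chr11:77725244-77725373, minus): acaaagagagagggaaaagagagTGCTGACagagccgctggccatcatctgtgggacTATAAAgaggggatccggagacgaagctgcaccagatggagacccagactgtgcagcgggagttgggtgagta
Crybb1 (chr5:112255740-112255869, plus): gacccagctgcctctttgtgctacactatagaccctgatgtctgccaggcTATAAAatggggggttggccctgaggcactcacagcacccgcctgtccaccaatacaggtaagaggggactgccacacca
Cryaa (chr17:31677851-31677980, plus): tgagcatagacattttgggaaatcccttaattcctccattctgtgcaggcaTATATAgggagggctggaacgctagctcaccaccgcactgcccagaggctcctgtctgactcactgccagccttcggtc

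Of the 29 genes, 27 matched a promoter window of 250 bases before to 50 after the start. TATATA was found in all 6 of Cryga to Crygf and in 8 of the 27 members, against 5.67% of all 32851 windows. CTTTTGTG was found in 5 members, all of them among Cryga to Crygf, against 1.37% of windows. Both motifs were picked after these promoters had been read, so the counts describe the windows and test nothing. TATAAA was found in 8 members (13.6% of all windows) and TGCTGAC, a core of the sites bound by the Maf factors that act in lens fibres, in 6 members (4.67%). GAANNTTC, a pair of heat shock element units, was found in 1 member, Dnase2b, against 7.86% of windows. Over the stretch that aligns, Cryge was 91.8% identical to Crygf (281 columns) and 92.7% identical to Crygd (151 columns). The 5 genes Cryge, Crygd, Crygc, Crygb and Cryga are immediate neighbours among the coding genes of chromosome 1, with Crygf 4 coding genes away. Cryba4 neighbours Crybb1 and Crybb2 neighbours Crybb3 on chromosome 5. The probes of such related genes can cross-hybridize, and the probe sequences were not used here, so values of single gamma crystallins are uncertain as to gene.

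Values are log2 expression values made by the submitters with RMA, which corrects background and equalizes the distribution of values between arrays. Array medians lay between 5.57 and 5.64 and the brightest probe set of an array between 13.71 and 13.76. Pearson's r between arrays was 0.975 to 0.993 over 15619 genes. Background was set at the 95th percentile of 1400 probe sets of olfactory and vomeronasal receptor genes, which are not expected in retina, and lay between 5.32 and 5.71 by array. The retinal identity of the tissue was borne out by its markers: 14 of 17 listed genes of rods, cones, bipolar, amacrine, horizontal, ganglion and Muller cells had a probe set of their own, and all 14 were above background on all 6 arrays. Gad1, the glutamate decarboxylase of inhibitory amacrine cells, was the 1 retinal gene of the list that was called, with a log2 difference of -0.68 (adjusted p = 0.0172 in limma's fit). Of all 15619 genes tested, 0.826% were called. Among the 14 retinal genes, 5 (35.7%) had an unadjusted p under 0.05 in limma's fit, against 13.5% of all genes. The targeted gene, Atrx, had 8.42, 8.72 and 8.33 in knockout and 9.04, 8.86 and 9.17 in wildtype retina, a log2 difference of -0.53 (SE 0.12, adjusted p = 0.115 in limma's fit). Atrx was lower on every knockout array than on any wildtype array, but the difference missed the threshold of 0.05. With an intensity trend and robust spread in the fit it passed (adjusted p = 0.0386), and under the other alternatives the adjusted p in limma's fit ranged from 0.056 to 0.333. Where its probes lie against the floxed part was not examined.

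Lens fibre genes set 2 of the 6 arrays apart, 1 in each genotype. The median of the 29 genes was 5.03, 9.17 and 5.42 on knockout 1, 2 and 3 and 10.21, 5.24 and 5.18 on wildtype 1, 2 and 3. In 27 of the 29 genes the values on knockout 2 and wildtype 1 both exceeded all 4 other arrays, a pattern held by 4.95% of all 22180 genes and by 5.22% of the 15619 genes that passed the filter on dim probe sets described below. The gap, here the lower of these 2 values minus the highest of the other 4, was at least 1 log2 unit in 23 members, against 0.117% of all genes and 0.122% of those that passed the filter. Among the genes with a probe set of their own, only 3 outside the 29 reached such a gap. Probe sets with several symbols or none were not counted. Many members were below background on the other 4 arrays, where differences are not measured, so for these the gap counted from the highest background line is also given, as "at least". Counted so, the gap was above 0 in 25 members and at least 1 in 20. Knockout 2 and wildtype 1 are called lens-rich below. They were known from earlier results of these data, so no test is made between them and the other arrays. The origin of this RNA was not tested.

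**Figure D1:**
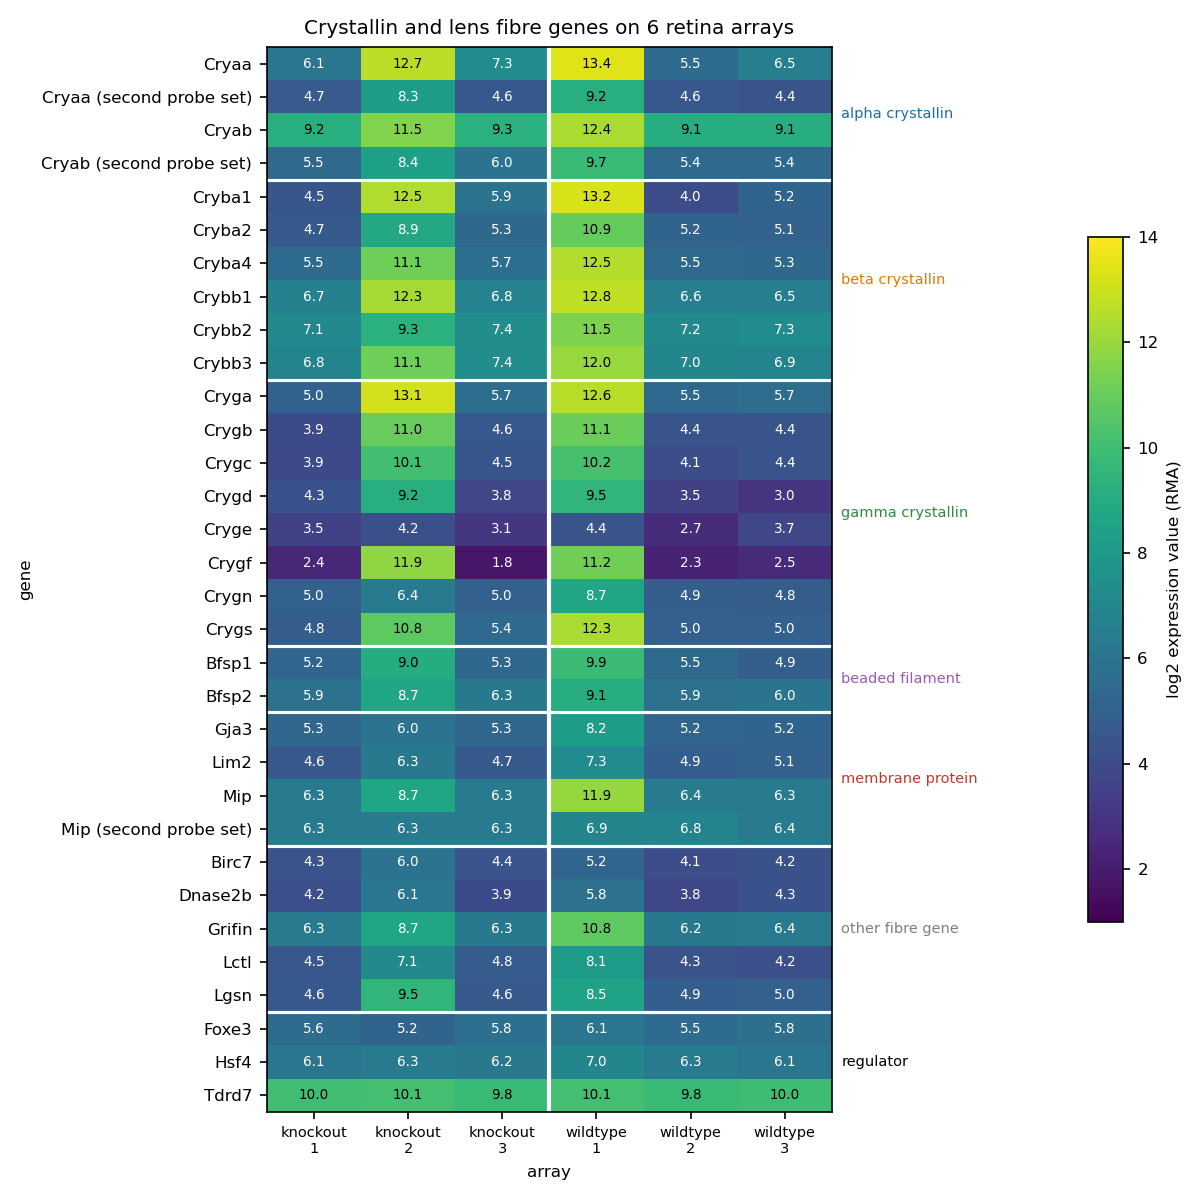
Log2 expression values (RMA) of the 32 probe sets of 29 lens genes, rows grouped by role, on the 3 knockout arrays (left) and the 3 wildtype arrays (right). Knockout 2 and wildtype 1 are the bright columns, for Cryaa at 12.7 and 13.4. The brighter probe set of Cryab and that of Tdrd7 are also bright on the other 4 arrays.

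The alpha crystallins showed the pattern against different levels on the other arrays. Cryaa, which is made mainly in lens, had 6.11, 12.68 and 7.26 in knockout and 13.36, 5.54 and 6.54 in wildtype retina. The gap was 5.42, a 42.9-fold step, and the other 4 arrays still differed among themselves by 1.72. The second probe set of Cryaa had 4.72, 8.29 and 4.58 in knockout and 9.20, 4.58 and 4.38 in wildtype retina, so it gave the same 2 high arrays with a smaller gap of 3.57, or at least 2.57 when counted from background. It did not show the spread among the other 4 arrays, which was 0.34. Cryab, the more widely made alpha crystallin, had 9.21, 11.53 and 9.31 in knockout and 12.37, 9.10 and 9.12 in wildtype retina. Its gap was 2.22, and its 4 other values lay within 0.21 of each other. The second Cryab probe set agreed in having the same 2 high arrays, with a gap of 2.44.

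All 6 beta crystallins had gaps of at least 1, from 1.90 for Crybb2 to 6.53 for Cryba1. Cryba1 had 4.50, 12.47 and 5.94 in knockout and 13.23, 4.01 and 5.18 in wildtype retina. On the 4 arrays without much lens RNA its values spanned 1.93, the widest span of any member, with knockout 3 highest and wildtype 2 lowest. Of these arrays only knockout 3 was above background, so most of this span was not measured. Crybb1 had 6.65, 12.25 and 6.78 in knockout and 12.77, 6.57 and 6.54 in wildtype retina. Its gap of 5.47 stood beside a span of only 0.24 on the other arrays. Crybb2, a beta crystallin that is also made in retinal neurons, had 7.07, 9.28 and 7.38 in knockout and 11.50, 7.23 and 7.30 in wildtype retina. The gaps of Crybb3 and Cryba4 were 3.78 and 5.37. Cryba2, below background on the other 4 arrays, had a gap of at least 3.14 (3.52 as read).

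Among the 8 gamma crystallins, 7 had gaps of at least 1 as read. Crygf had 2.45, 11.85 and 1.81 in knockout and 11.20, 2.32 and 2.53 in wildtype retina, a gap of 8.66 as read. Its values on the other 4 arrays lay far below background, so the measured step is at least 5.48 log2 units, or at least 44.7-fold. Cryga had 5.03, 13.10 and 5.71 in knockout and 12.62, 5.47 and 5.66 in wildtype retina, with a gap of 6.90, the largest of the 29 when counted from background. Crygb, Crygc and Crygd were below background on all 4 other arrays, and their gaps were at least 5.28, 4.35 and 3.46 (6.43, 5.58 and 4.88 as read). Cryge stood apart from these neighbours: it had 3.51, 4.20 and 3.07 in knockout and 4.43, 2.66 and 3.74 in wildtype retina. Its gap was 0.45 and it was above background on no array, although the promoter letters above are nearly those of Crygd and Crygf. Crygs, the gamma crystallin of mature lens, had 4.85, 10.75 and 5.42 in knockout and 12.34, 4.98 and 5.01 in wildtype retina, a gap of at least 5.04. Crygn, which shares features of beta and gamma crystallins, had a smaller gap of 1.36 as read and 0.66 from background.

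The structural genes of the fibre cell were high on the same 2 arrays. Bfsp1 and Bfsp2 encode filensin and phakinin, the subunits of the beaded filament, and had gaps of at least 3.32 (3.55 as read) and 2.40. Mip, the water channel of the fibre membrane, had 6.28, 8.69 and 6.29 in knockout and 11.92, 6.40 and 6.28 in wildtype retina. The second Mip probe set had 6.33, 6.30 and 6.31 in knockout and 6.90, 6.84 and 6.36 in wildtype retina and did not follow the first, so the probe sets of Mip disagree. Lim2, a fibre membrane protein, had a gap of 1.15 as read and 0.55 from background. Gja3, a connexin of fibre gap junctions, had 5.29, 5.97 and 5.31 in knockout and 8.21, 5.24 and 5.19 in wildtype retina. Its gap was only 0.67 as read and 0.26 from background, set by knockout 2.

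Of the other fibre genes, Lgsn, a lens protein related to glutamine synthetase, had 4.60, 9.53 and 4.64 in knockout and 8.50, 4.89 and 4.97 in wildtype retina, a gap of at least 2.78 (3.53 as read). Grifin, a galectin-related protein of fibre cells, had a gap of 2.25 and Lctl, a klotho-like membrane protein, of at least 1.41 (2.34 as read). Dnase2b, the nuclease that clears the DNA of fibre nuclei, had 4.18, 6.08 and 3.93 in knockout and 5.85, 3.80 and 4.26 in wildtype retina, a gap of 1.59 as read and 0.14 from background. Birc7, of the inhibitor of apoptosis family, had a gap of 0.81 as read and passed background on knockout 2 alone.

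None of the 3 regulators of lens development had a gap of at least 1, and Tdrd7 was level across the arrays. Hsf4, the heat shock factor that drives crystallin genes in lens, had 6.10, 6.31 and 6.19 in knockout and 6.98, 6.32 and 6.11 in wildtype retina, with wildtype 1 above the rest. Foxe3, a transcription factor of the lens epithelium, had 5.58, 5.17 and 5.77 in knockout and 6.10, 5.54 and 5.81 in wildtype retina, with its lowest value on knockout 2. These were the 2 members whose values on knockout 2 and wildtype 1 did not both exceed the others. Tdrd7, a Tudor domain protein of RNA granules whose loss causes cataract, had 9.99, 10.13 and 9.83 in knockout and 10.13, 9.78 and 9.95 in wildtype retina. Its gap of 0.14 makes it a gene of high and even signal in these retinas.

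The excess was not the same mixture of lens genes on both arrays. Knockout 2 was lower than wildtype 1 in 23 of 29 members, with a median difference of -0.76 on the log2 scale, against 0.003 over all genes. The difference ran from -3.23 for Mip to 1.04 for Lgsn. Mip, Crygn (-2.34), Gja3 (-2.24), Crybb2 (-2.22), Grifin (-2.11) and Cryba2 (-2.05) were at least 2 log2 units lower on knockout 2. Higher on knockout 2 were Lgsn, Birc7 (0.76), Crygf (0.65), Cryga (0.48) and Dnase2b (0.23), with Tdrd7 level at 0.0014. Birc7 was below background on wildtype 1, Foxe3 on knockout 2 and Cryge on both, so the sizes of their differences were not measured. The 6 genes Cryga to Crygf lay between -0.36 and 0.65 and had a median of -0.13. The remaining gamma crystallins, Crygs (-1.58) and Crygn, were clearly lower on knockout 2, so near-equal values do not hold for all gamma crystallins. The beta crystallins had a median of -1.13 and were all lower on knockout 2, as were the membrane proteins with a median of -2.24. Each value compares 1 array with 1 array, so these differences have no replicate check, and those of genes near 13 lie close to the upper end of the scale.

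**Figure D2:**
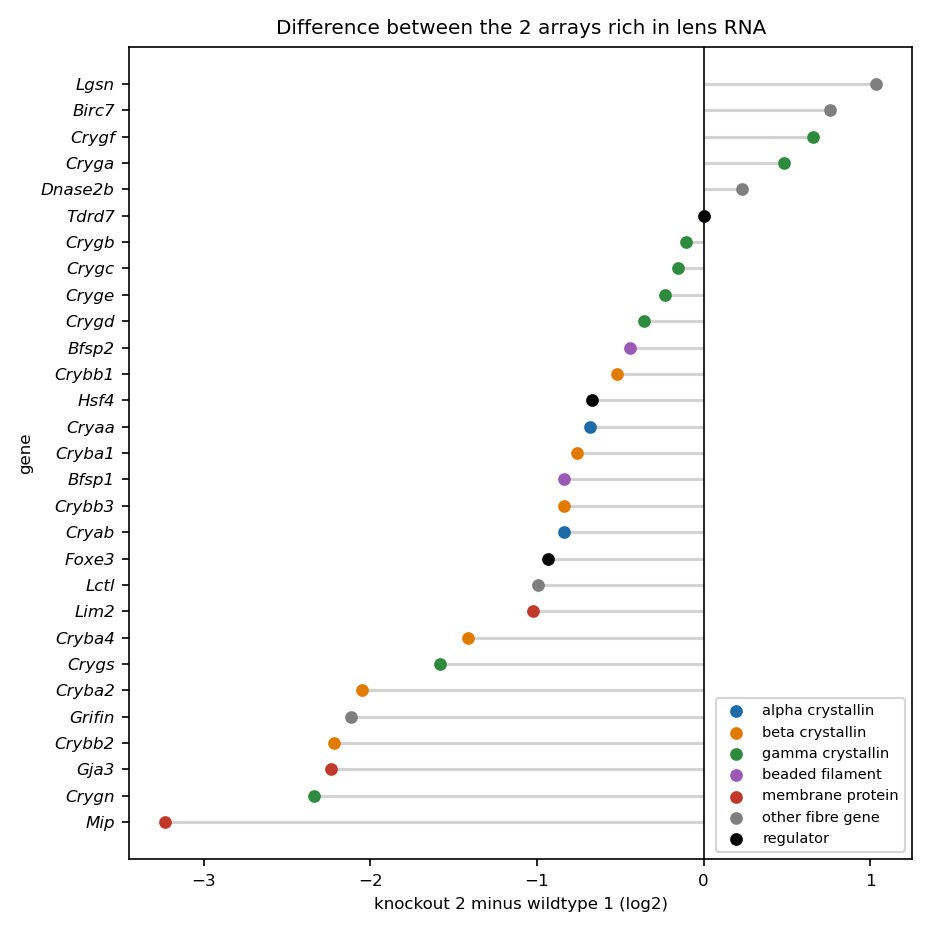
Difference between knockout 2 and wildtype 1 for each of the 29 genes (x axis, log2; 1 array against 1 array, so no error bar), coloured by role and sorted. Membrane proteins and several beta crystallins sit at the bottom, down to -3.23 for Mip, and Lgsn at 1.04, Birc7, Crygf, Cryga and Dnase2b sit right of 0. Birc7 was below background on wildtype 1, Foxe3 on knockout 2 and Cryge on both.

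Across genes, the excess of knockout 2 and the excess of wildtype 1 over the highest of the other 4 arrays ran together (Pearson's r 0.911, Spearman's rho 0.916 over 29 genes). Both measures subtract the same value and genes are no independent replicates, so the correlation is given as a description. Gja3, Crygn and Mip lay far above the line of equal excess and Lgsn and Birc7 below it, Birc7 with wildtype 1 below background.

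**Figure D3:**
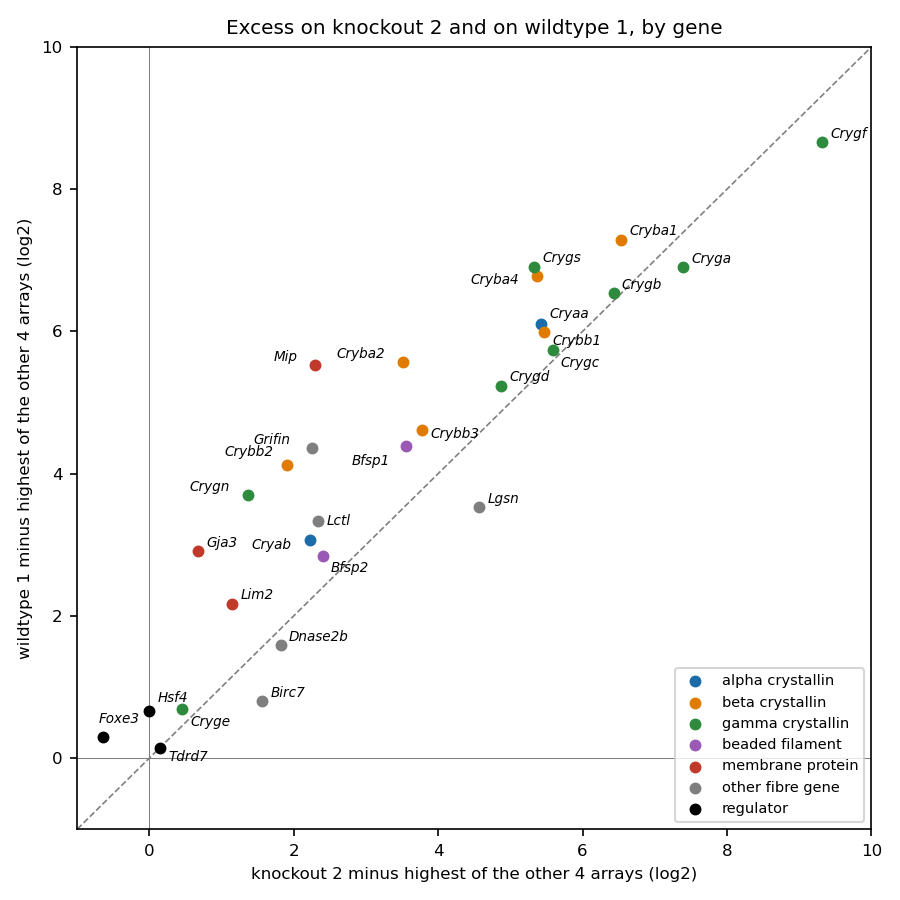
Excess over the highest of the other 4 arrays on knockout 2 (x axis, log2) and on wildtype 1 (y axis, log2); each point is 1 of 29 genes, coloured by role, and the dashed line marks equal excess. The points run from Foxe3, Hsf4 and Tdrd7 near 0 to Crygf at the upper right, whose other 4 arrays were below background, and most lie above the line.

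On the 4 arrays poor in lens RNA a small group of members stayed detectable. Above background on all 6 arrays were 10 members, against 56.0% of all genes: Cryaa, Cryab, Crybb1, Crybb2, Crybb3, Bfsp2, Mip, Hsf4, Grifin and Tdrd7. With the 99th percentile 5 members were: Cryab, Crybb1, Crybb2, Crybb3 and Tdrd7. Crybb1 only just passed that line on wildtype 2, at 6.57. Cryab at 9.10 to 9.31, Tdrd7 at 9.78 to 9.99 and Crybb2 at 7.07 to 7.38 were well above it on the 4 lens-poor arrays. The second Cryab probe set was near the background line there, at 5.44 to 5.96, and below it on wildtype 2. The high level of Cryab thus rests on 1 probe set. For Cryaa, wildtype 2 at 5.54 was barely above its background of 5.49, and the second probe set was below it on all 4, so its detection there rests on 1 probe set. A further 13 members were above background on both lens-rich arrays and on no other, against 0.162% of all genes: Cryba2, Crygb, Crygc, Crygd, Crygf, Crygn, Crygs, Bfsp1, Lim2, Gja3, Dnase2b, Lgsn and Lctl. The remaining members were Cryba1, Cryba4, Cryga, Birc7 and Foxe3, which crossed the line on some arrays, and Cryge. Of these, Foxe3 was above background on all 4 lens-poor arrays and below it only on knockout 2, at 5.17. By array, 12, 27 and 13 members were above background on knockout 1, 2 and 3 and 27, 11 and 12 on wildtype 1, 2 and 3. Probes differ in affinity, so a level above this line is a description, not proof of transcript.

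**Figure D4:**
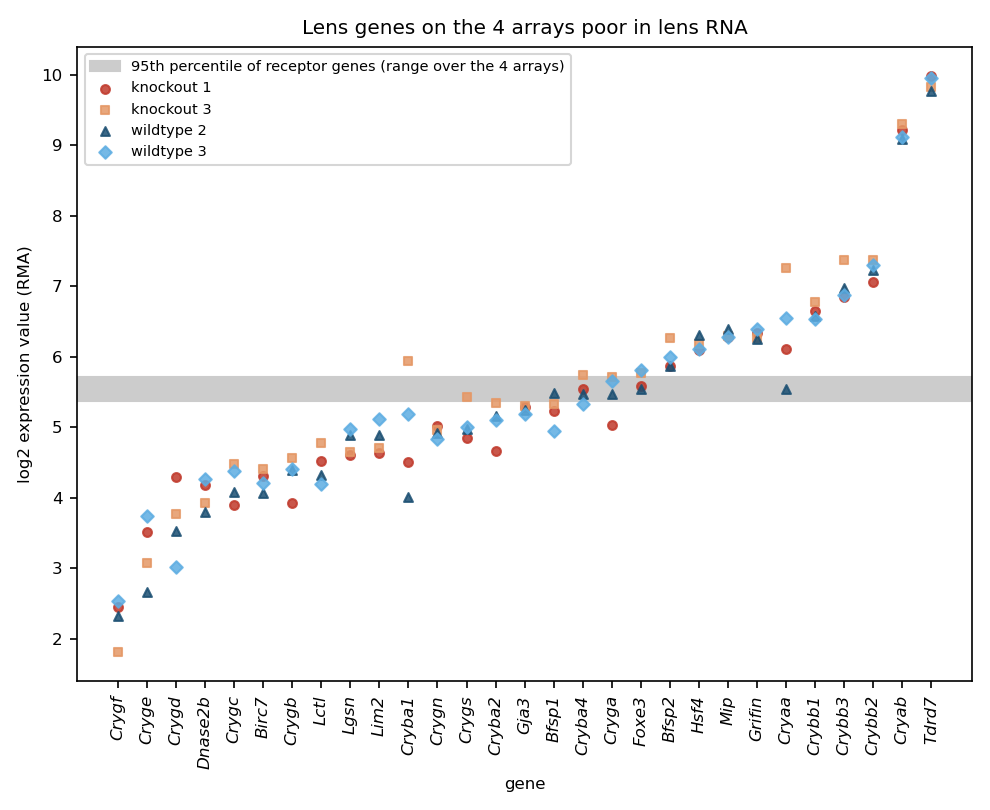
Log2 expression values (RMA, y axis) of the 29 genes on the 4 arrays poor in lens RNA, with knockout 1 and 3 in reds and wildtype 2 and 3 in blues; the grey band is the range of the background line over these arrays. Cryab and Tdrd7 stand at 9 to 10, and Cryaa and Cryba1 spread widely with knockout 3 on top, Cryba1 above background there alone. Heights of different genes are not comparable because probes differ.

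The lens-poor arrays were not all alike. Among the 23 members with a gap of at least 1, knockout 3 was the highest of the 4 in 14, wildtype 3 in 5, and knockout 1 and wildtype 2 in 2 each. Knockout 1 was the lowest of the 4 in 11 of the 23. Knockout 3 also had the highest background line of all arrays, at 5.71. Of the 14, Cryba2, Cryga, Crygb, Crygc, Crygs and Lctl lay at or below that line on knockout 3. The share of all genes highest on knockout 3 was not counted, and whether the ranking follows background was not tested. The median span of a member over these 4 arrays was 0.46 log2 units, against 0.30 over all genes. Spans above 1 were seen in Cryaa, Cryba1, Crygd and Cryge, of which Crygd and Cryge were below background on all 4 and Cryba1 on all but knockout 3.

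Knockout and wildtype retina were compared for the lens genes in limma's fit over all 15619 genes tested, those with a log2 value of at least 5 on at least 3 arrays. Of the 29 members 20 were tested, and Crygb, Crygc, Crygd, Cryge, Crygf, Birc7, Dnase2b, Lgsn and Lctl fell below the filter. No tested member was called at an adjusted p under 0.05, against 0.826% of all genes, and none had an unadjusted p under 0.05, against 13.5%. Knockout and wildtype values overlapped in all 20, whereas they did not overlap in 20.3% of all genes. In 18 of the 20 the gap was above 0, with 1 high array in each group. Overlap was fixed in advance for these, and a low p-value was hard to reach, so these counts say little about genotype. The median log2 difference of the 20 was -0.29, with 4 above 0 and 16 below, against 0.0027 over all genes. This median turned to 0.96 without wildtype 1 and was -1.49 without knockout 2, so its direction rests on single arrays.

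The intervals of this comparison were wide wherever 1 array of each group was lens-rich. Cryaa averaged 8.68 ± 3.51 in knockout and 8.48 ± 4.26 in wildtype retina (mean ± SD, n = 3 each), a difference of 0.20 with a 95% interval of -4.88 to 5.29. Mip averaged 7.09 ± 1.39 in knockout and 8.20 ± 3.23 in wildtype retina, a difference of -1.11 with an interval of -4.35 to 2.13. Tdrd7, which was level across arrays, had a difference of 0.03 with an interval of -0.24 to 0.29. The median SE of the 20 tested members was 1.28, against 0.0948 over all genes. These p-values measure the spread between animals, each hybridized once.

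Leaving out both lens-rich arrays gave 2 knockout against 2 wildtype retinas and narrowed the intervals, to a median width of 0.66 against 6.39 over the 29 members. Again no tested member was called, against 0.23% of all genes, with a median log2 difference of 0.07 (13 above 0 and 7 below). For Cryab the difference was 0.15 (interval -0.08 to 0.38), for Crybb2 -0.04 (-0.35 to 0.27), for Crybb1 0.16 (-0.08 to 0.40), for Mip -0.05 (-0.28 to 0.18) and for Tdrd7 0.04 (-0.23 to 0.31). Cryaa (0.64, interval -0.40 to 1.69) and Cryba1 (0.62, interval -0.64 to 1.89) kept wide intervals, with knockout 3 above the others. Lim2 was the 1 tested member with an unadjusted p under 0.05 (12.8% of all genes): its difference was -0.33 (SE 0.11, adjusted p = 0.311), and its 4 values of 4.64 to 5.11 were below background. The filter was applied over all 6 arrays, before the lens-rich arrays were left out. Lim2, Crygn, Crygs and Cryba1 passed it only through those arrays. Of the members below the filter, Crygd (0.76), Lctl (0.39) and Lgsn (-0.31) had intervals that left out 0 and adjusted p of 0.465 to 0.480, and all 3 were below background on these 4 arrays.

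**Figure D5:**
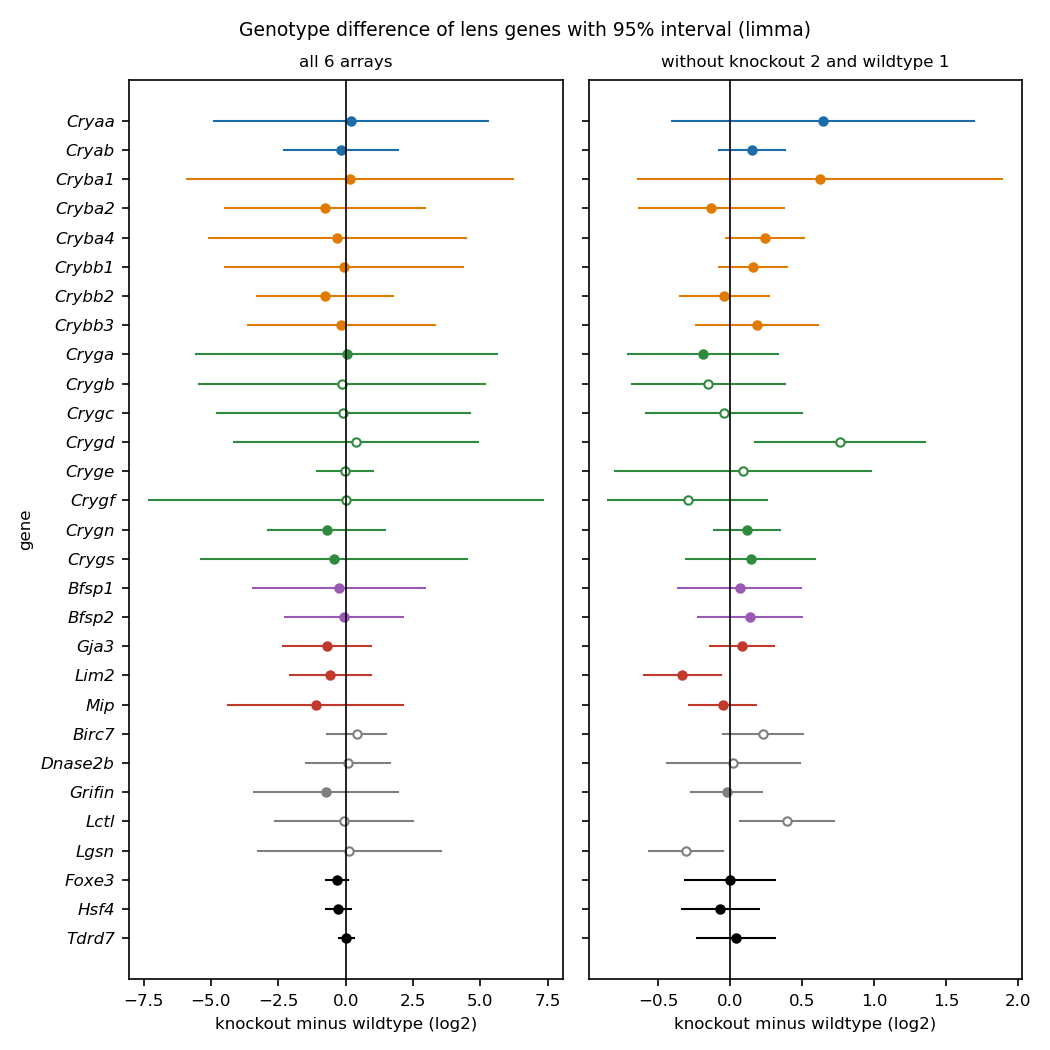
Log2 difference knockout minus wildtype of each of the 29 genes with its 95% interval from limma, over all 6 arrays (left) and without knockout 2 and wildtype 1 (right, narrower x axis); filled points passed the filter on dim probe sets and open points did not. Intervals of most crystallins reach several log2 units on the left, and on the right those of Cryab, Crybb1, Crybb2, Mip and Tdrd7 stay within 0.5 of 0.

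Genes outside the 29, among those with a probe set of their own, shared the pattern rarely. The largest gaps among them were those of Hmox1, the inducible haem oxygenase (2.12), Fabp5, a fatty acid binding protein (1.68), Cd24a, a surface glycoprotein (1.47), the small heat shock protein gene Hspb1 (0.98), Tent5c (0.87) and Pdlim1 (0.82). Pgam2 (0.80), Mboat1 (0.70), B3gnt5 (0.59) and Clic5 (0.58) followed. Hmox1 had 5.63, 9.12 and 6.28 in knockout and 8.40, 5.74 and 5.95 in wildtype retina, and Cd24a had 7.68, 9.21 and 7.61 in knockout and 11.30, 7.39 and 7.74 in wildtype retina. Hmox1 was thus higher on knockout 2 and Cd24a higher on wildtype 1. None of these 10 was called between genotypes in limma's test (adjusted p from 0.74 to 0.982). They were picked for high values on 1 array of each group, so overlap of the groups was fixed by the choice.

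Of 25 other genes known from lens, 23 were tested and none was called by limma in either direction, while 21.7% (5 genes) had an unadjusted p under 0.05, against 13.5% of all genes. A gap above 0 was seen in 26.1% of the 23 (6 genes), against 5.22% of all genes tested, and none reached 1. Lenep has no probe set of its own, and the 2 that it shares with Flad1 had gaps of 3.18 and 3.49. Among the 23, the largest gaps were those of the transcription factor Maf (0.50), Caprin2, an RNA-binding protein (0.40), Sox1 (0.24), a factor that activates gamma crystallin genes, and Celf1 (0.12), a regulator of RNA processing. Caprin2 had 7.86, 8.26 and 7.74 in knockout and 9.40, 7.62 and 7.63 in wildtype retina, and so was raised mainly on wildtype 1. The mean of the 23 genes was 7.41, 7.51 and 7.42 in knockout and 7.88, 7.46 and 7.48 in wildtype retina, highest on wildtype 1. Because the gap takes the lower of the 2 lens-rich arrays, it does not count genes raised on wildtype 1 alone. Enzymes and relatives that carry a crystallin name (Crym, Cryl1, Cryz and others) had no gap above 0 in 8 genes, and none of the 7 tested was called or had an unadjusted p under 0.05. Of the small heat shock genes beside Cryaa and Cryab, Hspb1 was the 1 of 6 with a gap above 0. None of the 6 was called, and 2 (33.3%) had an unadjusted p under 0.05, against 13.5% of all genes.

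Of the listed markers of tissues next to the retina, none was higher on both lens-rich arrays than on all 4 others. The mean of 12 pigment epithelium genes was 8.29, 9.11 and 9.30 on knockout 1, 2 and 3 and 8.76, 9.46 and 9.17 on wildtype 1, 2 and 3, with knockout 1 lowest. In 4 of the 12, Rpe65, Rgr, Rdh5 and Ttr, knockout 2 and wildtype 1 were the 2 lowest arrays. Rpe65, an enzyme of the visual cycle, had 8.19, 8.13 and 8.79 in knockout and 7.46, 8.89 and 8.48 in wildtype retina. The pigment gene Mlana was instead lowest on knockout 1, with 7.99, 9.77 and 9.48 in knockout and 9.31, 9.66 and 9.51 in wildtype retina. These genes were chosen after their values were seen, and the part of pigment epithelium in the lens gene values was not tested. The mean of 7 cornea genes was 5.43, 5.77 and 5.97 in knockout and 5.80, 6.05 and 5.89 in wildtype retina, and Krt12, the keratin of corneal epithelium, ranged from 5.58 to 5.97. Of these 7 genes, 3 were below background on every array and only 1 was above it on all 6. The list could therefore show little about cornea, and Krt12 itself was below background on knockout 3. Dcn, of the same list, had 7.74 on knockout 1 and 9.45 to 9.92 on the other arrays. No gene of either list had a gap above 0, and none of the 11 pigment epithelium genes and 4 cornea genes tested was called by limma or had an unadjusted p under 0.05. None of 4 vessel genes had a gap above 0, and none was called, with 1 unadjusted p under 0.05 (25.0%, against 13.5% of all genes).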

How the data were processed

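The authors deposited RMA output on the log2 scale, per the submitters' processing notes; its software, version and genome build were not given in the sources used here. RNA (100 ng per array, per the labels' protocols) came from 3 knockout and 3 wildtype animals. The number of arrays limits the precision, and nothing but the labels says how the animals relate beyond being littermates.

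Probe sets with exactly 1 gene symbol in the platform annotation were used (23521, against 1814 with several and 16010 with none). Dim probe sets, those under a log2 value of 5 on more than 3 arrays, were not tested, and a gene was represented by the probe set with the highest mean over the 6 arrays; members below the filter come from the fit without it. Differences are knockout minus wildtype from a moderated linear model in limma 3.58.1, run in R 4.3.3 (genotype as the only term, 2-sided, Benjamini-Hochberg over all genes tested); an exact permutation test of 3 against 3 cannot go below 0.1. The procedure was tested on simulated data.

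The members, lists and alternatives were chosen with earlier results of these data known, including which arrays are rich in lens RNA. Named genes are every member, Atrx, the 10 other tested genes with the largest gap (without unnamed loci and small RNAs), and from each further list all called genes and up to 4 with the largest gap; Crym, Cryl1 and Cryz are named to say what their list holds. Figures were drawn with matplotlib 3.10.9.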

Additional observations from a re-analysis of the deposited data

How the results depend on the processing

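All alternatives were planned except holding the other 4 arrays at background, chosen after seeing the data, which gave 25 members with both high values in place of 27. No lens gene was called under any of them, and the count with both high values stayed between 23 (gap of at least 1) and 28. The genes called, 129 with the settings of the report, were 74 without a filter, 209 with a floor of 6, 282 with an intensity trend and robust spread, 1 without pooled spread, 36 without both lens-rich arrays, 68 with the replicate block and 25 to 141 with 1 array left out. Replicate numbers did not pair the arrays (r of deviations -0.274, -0.381 and -0.058 for numbers 1, 2 and 3), and the block left the lens genes' median at -0.29. Members above background on all 6 arrays were 5 with the 99th percentile and 14 with a log2 floor of 5, against 10. Array weights turned Cryaa to -0.93, Cryba1 to -1.20, Cryga to -1.30 and Tdrd7 to -0.0101, and a second quantile normalization turned Tdrd7 to -0.0137. Without both lens-rich arrays the sign turned for Cryab (0.15), Cryba4 (0.24), Crybb1 (0.16), Crybb3 (0.19), Cryga (-0.19), Crygn (0.11), Crygs (0.14), Bfsp1 (0.065), Bfsp2 (0.14), Gja3 (0.080) and Foxe3 (0.0003). With 1 array left out the differences ran from -1.80 to 2.64 for Cryaa, -0.93 to 0.91 for Cryab, -2.25 to 3.04 for Cryba1, -2.05 to 1.15 for Cryba2, -2.13 to 2.06 for Cryba4, -1.91 to 2.0 for Crybb1, -1.49 to 0.64 for Crybb2 and -1.50 to 1.53 for Crybb3. They ran from -2.54 to 2.39 for Cryga, -1.37 to 0.58 for Crygn, -2.31 to 2.01 for Crygs, -1.49 to 1.32 for Bfsp1, -0.92 to 1.01 for Bfsp2, -2.07 to 0.75 for Mip, -1.09 to 0.20 for Lim2, -1.20 to 0.30 for Gja3, -1.50 to 0.76 for Grifin and -0.060 to 0.12 for Tdrd7. Their median ran from -1.49 to 0.96. It was -1.04 with array weights and 0.07 without both lens-rich arrays, against -0.29. Fewer arrays stand behind the values with arrays left out, whereas array weights and the second quantile normalization used all 6. Other causes were not tested.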

Other observations

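Lenep, a gene of lens epithelium and fibre cells, shares its probe sets with Flad1, so it was in no count above. Its 2 probe sets nevertheless showed the pattern of the crystallins. The first had 7.46, 10.84 and 7.66 in knockout and 11.00, 7.66 and 7.61 in wildtype retina, a gap of 3.18. The second had 7.10, 10.90 and 7.31 in knockout and 10.85, 7.35 and 7.35 in wildtype retina, a gap of 3.49. A probe set shared by Cryab and its neighbour Hspb2 did not: it had 5.58, 6.06 and 6.14 in knockout and 6.37, 6.03 and 5.81 in wildtype retina. Lenep and these shared probe sets were picked out after their values were seen.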
